A study of Mus musculus with 6 samples.

Results

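The 9 genes described here encode enzymes that break down tryptophan and related amino acids in mice. They are the tryptophan dioxygenases Ido1, Ido2 and Tdo2, the downstream kynurenine pathway enzymes Afmid, Kmo, Kynu, Haao and Qprt, and the secreted amino acid oxidase Il4i1. They were chosen by symbol from the deposited table of 22183 genes, and all 9 of 9 matched. Where a symbol had several rows, the row was to be selected on its summed counts, which was needed for 0 genes. RNA was sequenced from cells isolated from the peritoneum of 3 saline mice and 3 PD mice, all male wild-type C57BL/6J mice aged 8 to 10 weeks, with 1 library per mouse. PD mice received a high-glucose peritoneal dialysis (PD) fluid by daily intraperitoneal injection for 6 weeks, and saline mice received saline for the same time. Cells were isolated as peritoneal endothelial cells (ECs) through CD31. The labels describe magnetic sorting of CD31+ cells, whereas the study's supplementary methods describe digestion of the mesentery and flow sorting of CD31+ CD45- cells. Each library is a mixture read in bulk, in which fewer cells of a type and less RNA per cell cannot be told apart.

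Most tryptophan that is not built into protein is degraded along the kynurenine pathway. A dioxygenase opens the indole ring, later enzymes turn kynurenine into quinolinic acid, and that acid can become the coenzyme NAD. TDO2 is known for this first step in the liver, while IDO1 is known as the interferon-inducible enzyme of dendritic cells, macrophages and some endothelia, where tryptophan depletion and kynurenine restrain T cells. IL4I1 instead deaminates phenylalanine, tyrosine and tryptophan. Kynurenine and the indole products of IL4I1 are ligands of the aryl hydrocarbon receptor.

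Between 21973426 and 26374292 reads per library were counted on genes, and edgeR tested the 14005 genes that passed its filter on low counts. Levels are given as CPM (read counts scaled to the TMM-corrected library total), and changes as log2 fold changes, PD minus saline. The transcript of CD31 (Pecam1) averaged 469 CPM in the saline and 514 CPM in the PD group. That of CD45 (Ptprc), against which the supplement describes sorting, averaged 2373 and 1473 CPM. The supplement lists the same dye, FITC, for the CD31 and the CD45 antibody. Summed CPM of 12 endothelial markers lay at 1195 to 1211 in saline mice and 1908 to 2018 in PD mice, and 11 of 12 rose. Summed CPM of 6 pan-leukocyte markers lay at 7387 to 7764 and 5847 to 5903, and 5 of 6 fell. The 8 B cell markers summed to 6035 to 6335 CPM and 2831 to 2847 CPM, and 8 of 8 fell. The 12 macrophage and monocyte markers summed to 2676 to 2814 CPM and 11142 to 12043 CPM, and 12 of 12 rose. The 10 dendritic cell markers summed to 655 to 697 CPM and 649 to 663 CPM, with 7 higher and 1 lower. Fibroblast and mesothelial markers rose in 8 of 8 each, neutrophil markers in 6 of 7 tested, mast cell markers in 7 of 8, plasma cell markers in 4 of 6 (1 fell), T and NK cell markers in 2 of 9 (3 fell) and hepatocyte markers in 1 of 2 tested. Pancreatic acinar genes, 10 in the list, summed to 1.21 to 3.46 CPM in saline mice and 6706 to 7660 CPM in PD mice. Leukocyte transcripts were therefore abundant in all 6 libraries, against the label of the cells as endothelial, and their composition differed between the groups.

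**Figure D1:**
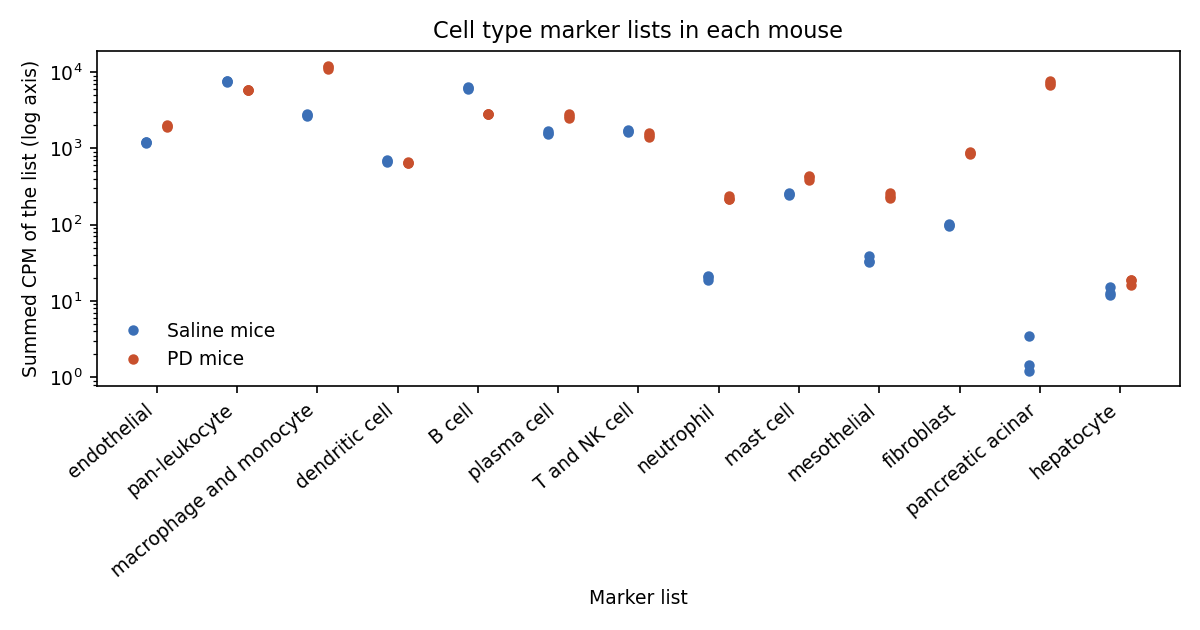
Summed CPM (log axis) of 13 lists of cell type markers; each point is 1 mouse. B cell markers are lower and macrophage, fibroblast, mesothelial and acinar markers higher in all 3 PD mice.

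In PD mice, Ido1 was higher by 2.33-fold, whereas Afmid, Kmo, Kynu, Haao and Il4i1 fell to between 0.446 and 0.611 of the saline level. The rise of Ido1 was also called with pan-leukocyte and B cell marker scaling, but not with endothelial marker scaling (log2 fold change 0.31, edgeR adjusted p = 0.254). The 5 falls hold when libraries are scaled over all genes, to endothelial markers or to pan-leukocyte markers, but not when they are scaled to B cell markers (described below). Tdo2 and Qprt did not pass the threshold, and Ido2 was too low to be tested. Of the 8 genes tested, 1 was called higher and 5 lower in edgeR's quasi-likelihood test at an adjusted p under 0.05, with Benjamini-Hochberg adjustment over all 14005 genes. Over all genes tested, 31.1% were called higher and 27.8% lower. The groups did not overlap for 7 of 9 genes, of which 2 were higher (Ido1 and Tdo2) and 5 lower in PD mice. Among all genes tested, 34.0% were higher and 31.6% lower without overlap. The median log2 fold change of the 8 genes was -0.75, against 0.02 over all genes. The genes were listed with results of these data known, so these shares are a description of the 9 genes.

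**Figure D2:**
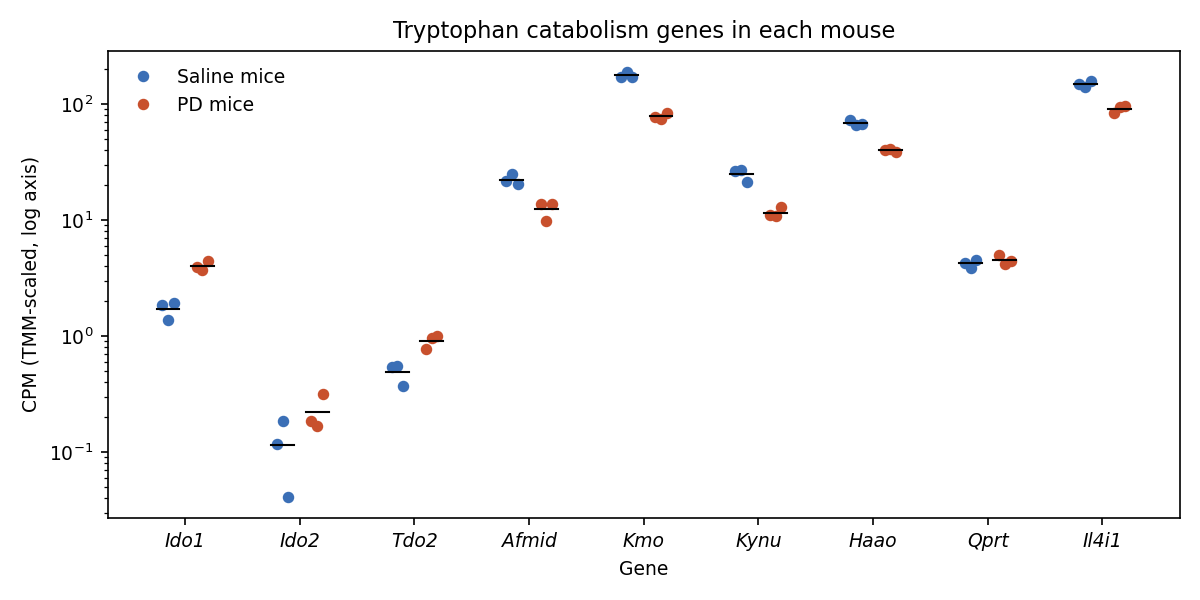
TMM-scaled CPM (log axis) of the 9 genes; each point is 1 mouse and each bar the mean of 3 mice. Ido1 and Tdo2 are higher and Afmid, Kmo, Kynu, Haao and Il4i1 lower in each PD mouse than in any saline mouse, while Ido2 and Qprt overlap.

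Ido1 (ENSMUSG00000031551; GRCm38 chr8:24584136-24597009, minus strand) encodes the inducible dioxygenase that commits tryptophan to the pathway. It had 47, 30 and 47 reads in the saline mice, or 1.84, 1.38 and 1.95 CPM, and 107, 89 and 98 reads in the PD mice, or 3.94, 3.73 and 4.44 CPM. The lowest PD mouse was above the highest saline mouse. The log2 fold change was 1.22 (SE 0.23, edgeR adjusted p = 0.000892). The ratio of the summed reads, 294 over 124 corrected for library size, was 2.32 with an exact 95% interval of 1.87 to 2.88, which covers counting error only. Beside this rise, the summed macrophage and monocyte markers rose more steeply, and per 100 CPM of the macrophage transcript Adgre1 the level of Ido1 was 2.03 ± 0.43 CPM in the saline and 1.14 ± 0.06 CPM in the PD group (SD, n = 3 each). The 10 dendritic cell markers differed among themselves, with 7 higher, 1 lower and a median log2 fold change of 0.64. Their summed level was 655 to 697 CPM in the saline and 649 to 663 CPM in the PD group. With libraries scaled to endothelial markers, the log2 fold change of Ido1 was 0.31 and its call was lost (edgeR adjusted p = 0.254). The part of these cells in the result was not tested.

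Ido2 (ENSMUSG00000031549; chr8:24531892-24576333, minus strand) encodes a paralogue of IDO1 with weak tryptophan turnover, and its gene lies 7802 bases from Ido1 on the same strand. Its reads numbered 3, 4 and 1 in the saline mice and 5, 4 and 7 in the PD mice. The groups overlapped, and the ratio of summed reads was 1.95 with an exact 95% interval of 0.789 to 5.28 for counting error. A difference was not detectable at this depth. Without the filter on low counts, the log2 fold change was 0.93 (SE 0.95, edgeR adjusted p = 0.443).

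Tdo2 (ENSMUSG00000028011; chr3:81957090-81976202, minus strand) encodes the dioxygenase of the liver. It had 14, 12 and 9 reads in the saline mice, or 0.547, 0.553 and 0.373 CPM, and 21, 23 and 22 reads in the PD mice, or 0.773, 0.964 and 0.997 CPM. All 3 PD mice were above all 3 saline mice, yet the log2 fold change of 0.88 (SE 0.39, 95% interval 0.03 to 1.73) did not pass after adjustment over all genes (edgeR adjusted p = 0.0694). The 8 hepatocyte markers summed to 11.8 to 15.3 CPM in the saline and 16.0 to 18.7 CPM in the PD group, of which Cyp2e1, also expressed outside the liver, made up most. Of these markers, 1 of 2 tested rose, namely Apoa1, with 1, 0 and 0 reads in the saline mice and 110, 79 and 113 reads in the PD mice. Ttr, Hnf4a and Tat had 0 reads in every saline mouse and up to 13 reads in a PD mouse, Fgb had 0 reads in all 6 libraries, and Alb had at most 4. The part of these transcripts in the result was not tested.

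Dioxygenase transcripts were scarce relative to those of the later steps. In FPKM, the authors' values normalised for transcript length and library depth, Ido1, Ido2 and Tdo2 summed to 1.38, 1.08 and 1.34 in the saline mice and 2.85, 2.75 and 3.28 in the PD mice. Ido1 made up 84.7% ± 6.08 of that sum in saline mice and 86.4% ± 2.55 in PD mice (SD, n = 3 each), so it was the main dioxygenase transcript in both groups. The 3 genes whose CPM over the 6 libraries most resembled that of Ido1 were Dock1, Cpne2 and Rhbdl3. Their root mean square differences from Ido1 in centred log2 CPM were 0.0447, 0.0519 and 0.0772.

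Afmid (ENSMUSG00000017718; chr11:117825924-117839908, plus strand) encodes the formamidase that releases kynurenine from N-formylkynurenine. It stood at 21.5, 24.7 and 20.5 CPM in the saline mice and 13.8, 9.90 and 13.9 CPM in the PD mice. The groups did not overlap, and the second PD mouse was lower than the other two. Its log2 fold change was -0.83 (SE 0.14, edgeR adjusted p = 0.000605). Of the exon bases of Afmid, 44.2% are shared with the read-through gene Gm20708 on the same strand, which had 8 to 30 reads per library against 236 to 550 for Afmid.

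Kmo (ENSMUSG00000039783; chr1:175620381-175662116, plus strand) encodes the mitochondrial monooxygenase that turns kynurenine into 3-hydroxykynurenine, at the branch point with kynurenic acid. Its levels in the saline mice were 172, 189 and 169 CPM, those in the PD mice 77.1, 74.9 and 84.1 CPM in the PD mice, from 1785 to 4402 reads per library. The highest PD mouse was below the lowest saline mouse by more than the range within either group. Kmo fell by 1.17 on the log2 scale (SE 0.07, edgeR adjusted p = 2.54e-07), to 0.446 of the saline level.

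Kynu (ENSMUSG00000026866; chr2:43555329-43682715, plus strand) encodes kynureninase, which cleaves 3-hydroxykynurenine to 3-hydroxyanthranilic acid. Its levels were 26.7, 27.2 and 21.4 CPM in the saline mice and 11.0, 10.9 and 12.9 CPM in the PD mice. The third saline mouse was the lowest of its group and still above every PD mouse. The log2 fold change was -1.11 (SE 0.13, edgeR adjusted p = 3.06e-05), close to that of Kmo, the step before it.

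Haao (ENSMUSG00000000673; chr17:83831156-83847963, minus strand) encodes the dioxygenase that opens 3-hydroxyanthranilic acid on the way to quinolinic acid. Values were 73.0, 66.1 and 66.8 CPM in the saline mice and 39.9, 41.3 and 38.8 CPM in the PD mice. The groups were well apart and the PD mice differed little among themselves. Haao fell by 0.78 on the log2 scale (SE 0.08, edgeR adjusted p = 8.66e-06).

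Qprt (ENSMUSG00000030674; chr7:127107114-127122226, minus strand) encodes the transferase that makes nicotinic acid mononucleotide from quinolinic acid, the entry into NAD synthesis. It stood at 4.26, 3.87 and 4.55 CPM in the saline mice and 5.0, 4.19 and 4.44 CPM in the PD mice, and the groups overlapped. The log2 fold change was 0.10 (SE 0.18, edgeR adjusted p = 0.628), with a 95% interval of -0.28 to 0.49. That interval does not reach the log2 fold changes of Afmid, Kmo, Kynu and Haao.

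Summed over Afmid, Kmo, Kynu, Haao and Qprt, FPKM was 159, 155 and 150 in the saline mice and 79.8, 78.5 and 78.3 in the PD mice. The ratio of Kmo to Ido1 in FPKM was 54.0, 80.9 and 51.5 in the saline mice and 11.6, 11.7 and 11.0 in the PD mice. The ratio of Kmo to Qprt was 31.9 ± 4.58 in saline mice and 13.2 ± 1.38 in PD mice (SD, n = 3 each). Both ratios were lower in every PD mouse, and a ratio of genes within a library does not depend on the scaling between libraries. Such a ratio does depend on the mixture of cells in the library, whose part in these values was not tested.

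**Figure D3:**
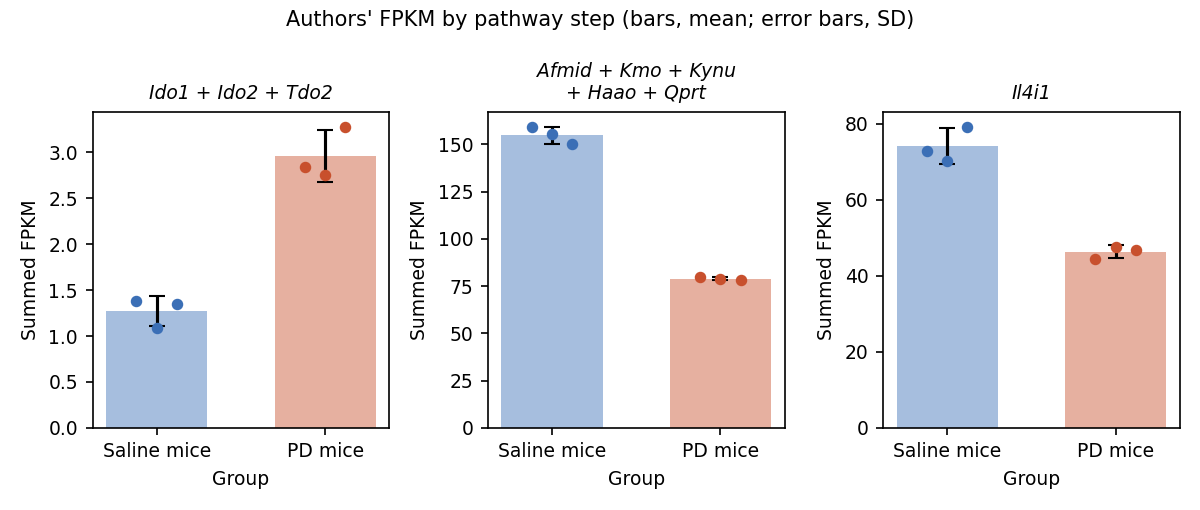
Summed FPKM, each panel with its own linear axis from 0, for the dioxygenases, the later kynurenine pathway enzymes and Il4i1; bars are means, error bars SD and points single mice (3 per group). The dioxygenase sum is higher and the other sums are lower in every PD mouse.

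Il4i1 (ENSMUSG00000074141; chr7:44816387-44840809, plus strand) encodes a secreted L-amino acid oxidase, known from B cells, dendritic cells and macrophages. Levels in the saline mice were 148, 141 and 159 CPM, those in the PD mice 83.7, 94.6 and 95.4 CPM. The groups did not overlap. Il4i1 fell by 0.71 on the log2 scale (SE 0.08, edgeR adjusted p = 1.75e-05). In FPKM it exceeded the summed dioxygenases by 58.9 ± 6.03 times in saline mice and 15.7 ± 1.52 times in PD mice (SD, n = 3 each). The gene Tbc1d17 on the opposite strand covers 83.9% of the exon bases of Il4i1. No source used here states that counting took strand into account, so whether reads of the 2 genes were kept apart is unknown. This limit holds for every level and ratio of Il4i1 given here. Tbc1d17 itself had a log2 fold change of -0.07 (SE 0.09, edgeR adjusted p = 0.533).

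Per length, the genes fell into a clear order of levels. In saline mice, Il4i1 (70.2 to 79.3 FPKM), Haao (61.6 to 71.7 FPKM) and Kmo (62.8 to 68.8 FPKM) formed the upper group, in which neighbours overlapped. Kynu (9.51 to 12.4 FPKM) and Afmid (9.10 to 10.7 FPKM) followed and overlapped, then Qprt (1.86 to 2.24 FPKM) and Ido1 (0.850 to 1.22 FPKM). Tdo2 (0.109 to 0.159 FPKM) and Ido2 (0.017 to 0.074 FPKM) were last. In PD mice, Il4i1 (44.4 to 47.7 FPKM), Haao (33.8 to 39.0 FPKM) and Kmo (27.8 to 30.4 FPKM) no longer overlapped. Afmid (4.53 to 6.25 FPKM) and Kynu (5.07 to 5.81 FPKM) overlapped, as did Ido1 (2.37 to 2.76 FPKM) and Qprt (2.05 to 2.51 FPKM), whose means had changed places.

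Kmo and Il4i1 carry, upstream of their RefSeq start sites, the core sequence bound by PU.1, a transcription factor of myeloid and B cells. They are shown because transcripts of these cells also differed between the groups. The letters GAGGAA were sought on both strands in the 250 bases before the start site (RefSeq, GRCm38.p6), which were given for 6 of the 9 genes (Afmid, Haao, Il4i1, Kmo, Qprt and Tdo2). Capitals mark the match in each stretch of 30 bases, written 5′ to 3′ on the strand of the gene.
Kmo: aaacacttatcaGAGGAAgtgagctttgac
Il4i1: agactgagttacTTCCTCctgtgatattta
The Kmo stretch (chr1:175632078-175632107) has the match 103 to 98 bases before the start site, within the 5′ untranslated part of a longer Kmo transcript in GENCODE M21. The Il4i1 stretch (chr7:44836145-44836174) has it on the minus strand, 131 to 126 bases before the start site, within an intron of a longer Il4i1 transcript and the 3′ untranslated part of Tbc1d17. GAGGAA occurs in 23.3% of the 32851 promoters in the table, so 2 of 6 is a description only. Of the sequences tied to interferon signalling, sought in the same way, TTCNNNGAA (7.02% of all promoters) was found for Qprt only among the 6, and the interferon-stimulated response element (2.98%) for 0 of the 6. No match overlapped another.

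The 5 genes that fell had log2 fold changes from -1.17 (Kmo) to -0.71 (Il4i1). Beside them, the median of the B cell markers was -1.15, and Ptprc had a log2 fold change of -0.69. Per 100 CPM of the CD45 transcript Ptprc, Il4i1 stood at 6.31 ± 0.66 CPM (saline) and 6.19 ± 0.22 CPM (PD), whereas Kmo was at 7.44 ± 0.09 CPM and 5.34 ± 0.26 CPM (SD, n = 3 each). With the whole pan-leukocyte list as the scale, Il4i1 was lower in PD mice (log2 fold change -0.36, edgeR adjusted p = 0.00393). Kynu per 100 CPM of Ptprc was 1.06 ± 0.12 CPM and 0.786 ± 0.05 CPM (SD, n = 3 each), without overlap. By the same measure, Haao was at 2.90 ± 0.28 CPM and 2.72 ± 0.16 CPM (SD, n = 3 each). Afmid was at 0.935 ± 0.05 CPM and 0.852 ± 0.16 CPM (SD, n = 3 each). Haao, Afmid and Il4i1 each overlapped between the groups by this measure. These ratios describe mixed libraries, and the cell type that made each transcript was not tested.

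Because the composition differed, the 8 genes were also tested with libraries scaled to marker lists. Scaling to endothelial markers shifted the median of all genes by -0.92 on the log2 scale, and 8.93% of all genes were then called higher and 70.7% lower. Among the 8 genes, 0 were then called higher and 6 lower. Ido1 had a log2 fold change of 0.31 (edgeR adjusted p = 0.254), Tdo2 of -0.03, and Qprt of -0.81 (edgeR adjusted p = 0.000905). Scaling to pan-leukocyte markers shifted the median by 0.35, with 53.0% of all genes called higher and 6.26% lower. Of the 8 genes, 3 were then higher and 5 lower. Tdo2 (1.24, edgeR adjusted p = 0.0162) and Qprt (0.46, edgeR adjusted p = 0.0477) joined Ido1, while Kmo (-0.81), Kynu (-0.76), Afmid (-0.47), Haao (-0.43) and Il4i1 (-0.36) remained lower. Scaling to B cell markers, added after seeing the data, shifted the median by 1.05, with 93.1% of all genes called higher and 0.328% lower. Of the 8 genes, 5 were then higher and 0 lower. Kmo (-0.11), Kynu (-0.06) and Afmid (0.22) did not pass, and Haao (0.27) and Il4i1 (0.34) were called higher. The order of the genes by fold change was kept in all 4 scalings, since each scaling moves all genes by nearly the same amount.

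**Figure D4:**
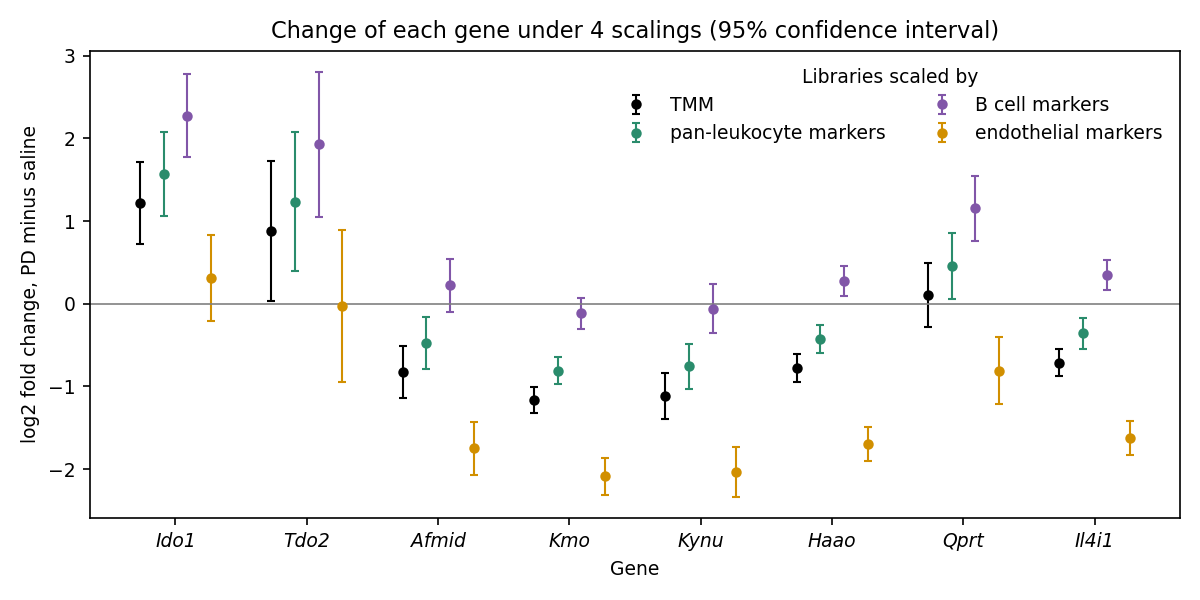
Log2 fold change (PD minus saline) of the 8 tested genes with 95% confidence intervals under 4 scalings of the libraries. Ido1 lies above the 5 genes from Afmid to Haao and Il4i1 under each scaling, while the position of 0 among the genes depends on the scaling.

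Genes around the pathway were read from 10 lists, of which 72 genes were tested, 32 were higher and 13 lower, beside 31.1% and 27.8% of all genes. With endothelial marker scaling these counts were 7 and 46 (8.93% and 70.7% of all genes), with pan-leukocyte marker scaling 47 and 5 (53.0% and 6.26%), and with B cell marker scaling 71 and 0 (93.1% and 0.328%). Directions below refer to TMM scaling, and the counts of each list are a description beside those shares. With endothelial marker scaling, Slc7a8, Bst1, Cyp1a1, Socs3, Arg2 and Ddo were still called higher. Under that scaling Slc16a10 (0.16), Nnmt (0.34), Gpr35 (0.17), Inmt (0.33), Slc6a4 (0.19), Sesn2 (0.32), Asns (0.18) and Socs1 (0.17) lost their call, with edgeR adjusted p from 0.0504 to 0.623, and Naprt was called lower (-0.44). With pan-leukocyte marker scaling Cd38 (-0.09), Nadsyn1 (-0.09), Nmnat3 (-0.23), Slc6a19 (-0.33) and Odc1 (0.08) lost theirs. With B cell marker scaling, each named gene that was lower had a positive value. Libraries were not scaled to macrophage and monocyte, fibroblast or mesothelial markers, whose median log2 fold changes were 2.05, 3.05 and 3.57. The part of those cells in the calls that remained higher was not tested.

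Of the tryptophan importers, 4 of 7 tested rose and 1 fell (31.1% and 27.8% of all genes), and with endothelial marker scaling 1 rose and 5 fell. Slc7a8, a light chain of the large neutral amino acid exchangers, was at 11.4, 7.10 and 8.32 CPM in the saline mice and 46.3, 43.3 and 35.0 CPM in the PD mice. Its log2 fold change was 2.21 (SE 0.17, edgeR adjusted p = 1.21e-06). Slc16a10, the aromatic amino acid transporter TAT1, rose by 1.07 (SE 0.09), and Slc6a19, a neutral amino acid transporter, fell by 0.69 on the log2 scale (SE 0.14). Among enzymes that compete with Kmo for kynurenine, 0 of 3 tested aminotransferases (Kyat1, Kyat3 and Got2) passed, with values of -0.17, -0.04 and 0.07, and Aadat had 0 reads in all 6 libraries. Acmsd, which diverts the pathway away from quinolinic acid, also had 0 reads in all 6 libraries, and Acat1, a later enzyme of that arm, fell by 0.53 (SE 0.07). Of that arm, 1 of 2 tested genes was called, and 2 were without the third saline mouse.

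Of the NAD synthesis and salvage genes beyond Qprt, 3 of 9 tested were higher and 2 lower, shares near those over all genes (31.1% and 27.8%). With endothelial marker scaling 0 were higher and 8 lower. Nnmt, which methylates nicotinamide, rose by 1.25 (SE 0.26) and Naprt, the first enzyme of salvage from nicotinic acid, by 0.48 (SE 0.14). Nmnat3 fell by 0.58 (SE 0.15) and Nadsyn1, the last enzyme of the route from Qprt to NAD, by 0.45 on the log2 scale (SE 0.11). Nampt, the main salvage enzyme, had a log2 fold change of 0.04 (SE 0.07, edgeR adjusted p = 0.669). Of 8 NAD consuming enzymes, Bst1 rose by 2.21 (SE 0.13), while Parp1 (-0.57, SE 0.06) and Cd38 (-0.45, SE 0.07) fell.

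Targets and partners of the aryl hydrocarbon receptor, the receptor for kynurenine and indole products, were higher in 5 of 9 tested (31.1% of all genes), and in 1 of 9 with endothelial marker scaling. Cyp1a1, its classical target, was at 4.37, 3.92 and 4.60 CPM in the saline mice and 15.5, 15 and 12.5 CPM in the PD mice. The groups were far apart, and the log2 fold change was 1.74 (SE 0.15, edgeR adjusted p = 3.09e-06). Gpr35, a receptor activated by kynurenic acid, rose by 1.09 (SE 0.12). In the serotonin and melatonin branch, which also starts from tryptophan, 4 of 6 tested rose and 0 fell (31.1% and 27.8% of all genes), against 0 and 1 with endothelial marker scaling. Among those that rose were Inmt (1.25, SE 0.18) and the serotonin transporter Slc6a4 (1.10, SE 0.31). Tph1, the first enzyme of that branch, rose from 2.20 to 4.24 CPM (log2 fold change 0.95, SE 0.22).

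Of 9 genes of the response to amino acid shortage, 4 rose and 0 fell (31.1% and 27.8% of all genes), among them Sesn2 (1.24, SE 0.15) and Asns (1.09, SE 0.14). Without the third PD mouse 2 rose, without the third saline mouse 1 fell, and with endothelial marker scaling 0 rose and 7 fell. Eif2ak4, the GCN2 kinase that senses uncharged transfer RNA, had a log2 fold change of 0.03 (SE 0.16, edgeR adjusted p = 0.866). Among 14 genes of interferon gamma signalling and Ido1 regulation, 7 rose and 5 fell (31.1% and 27.8% of all genes), against 1 and 9 with endothelial marker scaling. Socs3 (1.75, SE 0.14) and Socs1 (1.08, SE 0.10), feedback inhibitors of cytokine signalling, were higher. Bin1, known as a restraint on Ido1 expression, fell by 0.65 on the log2 scale (SE 0.06). Ifng itself was at 3.03 and 3.56 CPM (0.22, SE 0.24, edgeR adjusted p = 0.437). Of the other amino acid oxidases and arginine enzymes, 4 of 5 tested were higher (31.1% of all genes), and 3 with endothelial marker scaling. Arg2 rose by 3.71 (SE 0.37) and Ddo, the D-aspartate oxidase, by 2.57 (SE 0.52), from means of 0.260 and 0.177 CPM in saline mice, while Odc1 fell by 0.28 (SE 0.07).

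**Figure D5:**
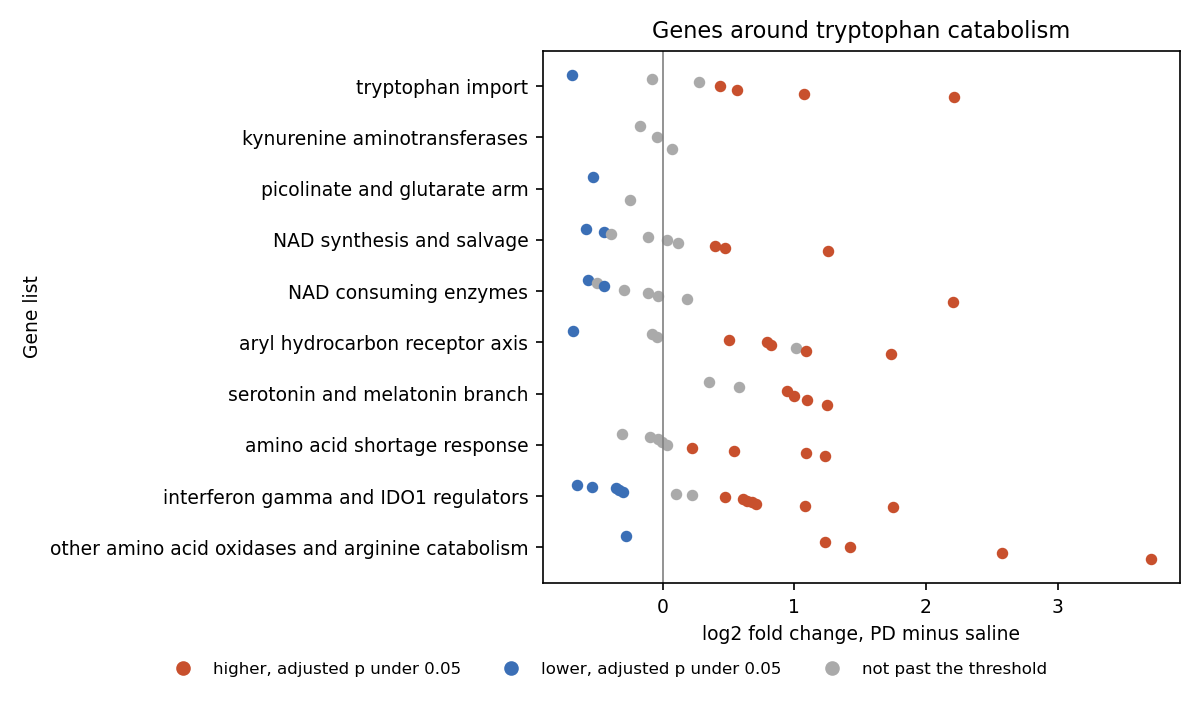
Log2 fold change (PD minus saline, TMM scaling) of the 72 tested genes in 10 lists around tryptophan catabolism; each point is 1 gene, coloured by its call at an adjusted p under 0.05. The serotonin and amino acid shortage lists have no lower call, and the aminotransferase list has no call. With endothelial marker scaling these lists have 1, 7 and 3 lower calls, in that order.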

How the data were processed

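The authors deposited a table of read counts per gene, without normalization, for each of 6 libraries, together with FPKM values that they computed. Per the labels, mRNA was enriched with oligo(dT), and the submitters' processing notes name fastp 0.18.0, Bowtie2 2.2.8, HISAT2, StringTie 1.3.1 and RSEM. The genome build, annotation and strand setting are not given in the sources used here. The table also holds group means, log2 ratios, p-values and FDRs of the authors' own comparison, which were not used, and sample columns without a match numbered 0.

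The count test was run in edgeR 4.0.16 (R 4.3.3), with limma 3.58.1 and DESeq2 1.42.0 for alternatives. Summaries used pandas 2.3.3 and scipy 1.17.1 in Python 3.11.15. After filterByExpr and TMM scaling, 3 PD mice were compared with 3 saline mice by the quasi-likelihood test without covariates. The Benjamini-Hochberg threshold was 0.05 over 14005 genes, and SEs were derived from the F statistic. FPKM was used for levels between genes, with no test. Exact intervals and ratios of reads cover counting error only. No source names litters, and the supplement's cultures of mouse peritoneal ECs are not tied to the sequenced cells. The p-values set the group difference against the variation among 3 mice per group. Positions are from GENCODE M21 on GRCm38, to which 22128 identifiers matched.

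The 9 genes and all lists were chosen with earlier results of these data known. In each of 10 lists, up to 2 called genes per direction were named, by size of change among genes averaging 10 counts or more, plus genes that a small count needed. Nampt, Tph1, Eif2ak4 and Ifng were named for their roles, after their values were seen. A few genes that this rule names are not reported here. Markers came from 13 lists. Alternatives were no filter, DESeq2, limma-voom, RLE scaling, scaling to marker lists, the replicate number as a block, a fold change of at least 2 and leaving out each mouse. Scaling to B cell markers and leaving out acinar genes were added after seeing the data.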

Additional observations from a re-analysis of the deposited data

How the results depend on the processing

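With TMM scaling, 4359 genes were higher and 3887 lower in PD mice. Of the tryptophan catabolism genes, 1 was higher and 5 were lower with TMM, RLE scaling, no filter, DESeq2, limma-voom, acinar genes left out and any 1 mouse left out. Endothelial marker scaling gave 1251 and 9897 genes (0 higher among the tryptophan catabolism genes) and turned Tdo2 to -0.026 and Qprt to -0.81. Pan-leukocyte marker scaling gave 7423 and 877 genes (3 higher among the tryptophan catabolism genes). B cell marker scaling gave 13045 and 46 genes (5 higher and 0 lower among the tryptophan catabolism genes) and turned Afmid to 0.22, Haao to 0.27 and Il4i1 to 0.34. A fold change of at least 2 left 2158 and 252 genes, with 1 higher (Ido1) and 2 lower (Kmo and Kynu) among the tryptophan catabolism genes. Leaving out each mouse in turn gave 3852 to 4333 higher and 3121 to 3685 lower genes. In these fits the log2 fold change of Ido1 lay between 1.09 and 1.31, and that of Kmo between -1.21 and -1.12.

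Same-numbered mice did not deviate together more than other pairs (r = 0.10, 0.04 and -0.17, against -0.27 to 0.23). No pairing by number was seen, but with 3 mice per group these values cannot exclude a pairing. With the replicate block, 4242 genes were higher and 3667 lower, and again 1 and 5 of the tryptophan catabolism genes. Depth limits Ido2, at 8 and 16 reads in all 3 mice of a group, and Tdo2, at 35 and 66 reads.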
